A study of Danio rerio with 2 samples.

Results

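The genes described are 42 lysosomal genes of the zebrafish, chosen by name: acid peptidases, an acid ribonuclease, a sialic acid lyase, glycosidases and a sulfatase, enzymes and carriers of lipid breakdown, proteins of the lysosomal membrane, and subunits of the proton pump. Of the 42 listed, 41 were matched by symbol to a feature of the deposited matrices, out of 27771 features in all, and the same 41 were among the 17819 genes of the authors' table of mean expression per cluster. The gene lipa was not analysed here. Trunks of embryos at 27 hours post fertilization were dissociated, cells with the endothelial reporter Tg(kdrl:hras-mCherry)s896 were sorted by fluorescence, and transcript 3′ ends were counted in droplets. There was 1 library labelled wildtype and 1 labelled 223mut, a mutant of the microRNA miR-223. The wildtype library came from fish with the activator Tg(miR-223:KalTA4) of allele ya362, and the mutant library from fish with allele ya363 of that activator and the mutation miR-223(ya303). Both lines also carried the responder Tg(5xUAS:eGFP)nkuasgfp1a and the kdrl reporter, which is driven by an endothelial promoter and also labels progenitors that derive from endothelium. The number of embryos behind each library is not given in the labels, and miR-223 itself was not analysed here.

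Lysosomes are acidic organelles in which proteins, nucleic acids, glycans and lipids taken up or set aside by a cell are broken down. A proton pump acidifies them, hydrolases work at that acid pH, and membrane proteins hold the organelle together and export the products. Venous endothelial cells of zebrafish embryos take up macromolecules from the blood through scavenger receptors such as stab2 and pass them to lysosomes, and macrophages digest engulfed cells and particles in theirs. MiT/TFE transcription factors, among them tfeb, tfe3 and tfec, are known in mammals as activators of lysosomal genes.

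The authors' table gives the mean count of unique molecular identifiers (UMIs, 1 per captured transcript) per cell for 15 clusters in each library. It rests on 6227 wildtype and 6125 mutant cells with 42151444 and 44001760 UMIs. Levels are UMI counts scaled to a sum of 1000000 (CPM) within a cluster, or within clusters summed into a class, and paired values are given in the order wildtype, mutant. Clusters 0 and 2 were venous-like, each with 8 of 9 venous markers and 0 of 8 arterial markers above the pool of endothelial-like clusters. Cluster 3 was arterial-like, with 8 of 8 arterial and 2 of 9 venous markers, and clusters 1, 5 and 6 were endothelial-like, with 1, 3 and 3 of the 9 venous and 0, 0 and 4 of the 8 arterial markers above that pool. Cluster 5 nevertheless had the venous gene stab2 at 1178 and 1218 CPM, beside 1244 and 1084 CPM in clusters 0 and 2 of the wildtype and 1431 and 879 CPM in those of the mutant library. It also held 9 of 10 venous markers at least 2-fold over the median of all clusters, where clusters 0 and 2 held 8 each. By that rule cluster 6 held 8 as well, cluster 1 held 7 and cluster 3 held 5, so it did not set the venous-like clusters apart. The other clusters were erythroid-like, mesenchymal-like, progenitor-like, neural-like, muscle-like, neutrophil-like, notochord-like, epidermal-like and macrophage-like, so the sort did not hold endothelial cells alone. The receptor gene kdrl lay at 95.8 to 336 CPM in the 6 endothelial-like clusters and at most at 31.5 CPM elsewhere, except in the progenitor-like cluster with 81.6 and 85.8 CPM. That cluster held 6 of 10 progenitor markers but also 7 of 14 endothelial and 7 of 10 neutrophil markers. The macrophage-like cluster had 12 of 13 macrophage and 7 of 10 neutrophil markers, and the neutrophil-like cluster 9 of 10 and 5 of 13. Venous-like cells fell mostly into cluster 2 in the wildtype library (1925 cells, with 283 in cluster 0) and into cluster 0 in the mutant library (1846 cells, with 31 in cluster 2), so both clusters were summed.

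Each genotype had 1 library and so no replicate. No test across samples could be made, no p-value is given, and genotype cannot be told apart from clutch, sort and library preparation. Intervals are 95% limits of counting error only, they treat each UMI as independent, and they leave out the spread between cells and between fish. Which genes the authors' clusters were built from is not given in the sources used here. Lysosomal genes may be among them, so differences between classes are descriptions. A difference was counted as 2-fold on the scale of log2(CPM + 1), among genes with at least 5 CPM, and the first count of a comparison stands beside the share of all genes that passed the same limits. Ratios were taken within a gene. Where genes are set side by side, as in shares of lysosomal UMIs, the counts of captured 3′ ends were used as they stand. The 2 libraries shared 98 cell barcodes. The neutrophil gene lyz lay at 58.5 to 108 CPM in the wildtype clusters other than the neutrophil-like and progenitor-like ones and at 77.3 to 211 CPM in the same mutant clusters. Such counts may come from RNA free in the droplets, from doublets or from the cells themselves, and their source was not tested.

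Lysosomal transcripts took the same share of the RNA of venous-like cells as of macrophage-like cells in the wildtype library, and a smaller share in every other class, with cluster 5 coming nearest. Summed over the 41 genes, they made up 1.61% of the UMIs of venous-like cells in the wildtype library (1.60% to 1.61%) and 1.65% in the mutant library (1.64% to 1.65%). Macrophage-like cells gave 1.61% (1.56% to 1.66%) and 1.41% (1.36% to 1.46%). Arterial-like cells gave 0.473% and 0.476%, neutrophil-like cells 0.460% and 0.489%, and erythroid-like cells 0.105% and 0.0942%. The share of venous-like cells was more than 3 times that of arterial-like cells in both libraries. Among the other endothelial-like clusters the share was 0.904% and 0.868% in cluster 1, 1.18% and 1.07% in cluster 5, and 0.755% and 0.832% in cluster 6. These 3 clusters lay between the arterial-like and the venous-like ones. Mesenchymal-like, progenitor-like, neural-like, notochord-like and epidermal-like clusters ranged from 0.237% to 0.340% over both libraries, and the muscle-like cluster was at 0.162% and 0.125%.

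Venous-like and macrophage-like cells also stood highest cell by cell. The cells of the matrices were assigned to the authors' clusters with the lysosomal genes left out of the assignment, which gave 2474 wildtype and 2274 mutant venous-like cells. Their median share of lysosomal UMIs was 1.61% in both libraries, with the middle 50% of cells between 1.29% and 1.97% in the wildtype library and between 1.25% and 1.995% in the mutant library. Arterial-like cells had medians of 0.4003% and 0.385%, macrophage-like cells 1.54% and 1.29%, neutrophil-like cells 0.438% and 0.472%, and muscle-like cells 0.0627% and 0.0515%. After each cell was thinned to 2000 UMIs, the median venous-like cell held transcripts of 12 of the 41 genes in the wildtype library and 13 in the mutant library. The median arterial-like cell held 5 in both, the median macrophage-like cell 12 and 11, the median neutrophil-like cell 4 in both, the median erythroid-like cell 2 in both and the median muscle-like cell 1 in both.

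**Figure D1:**
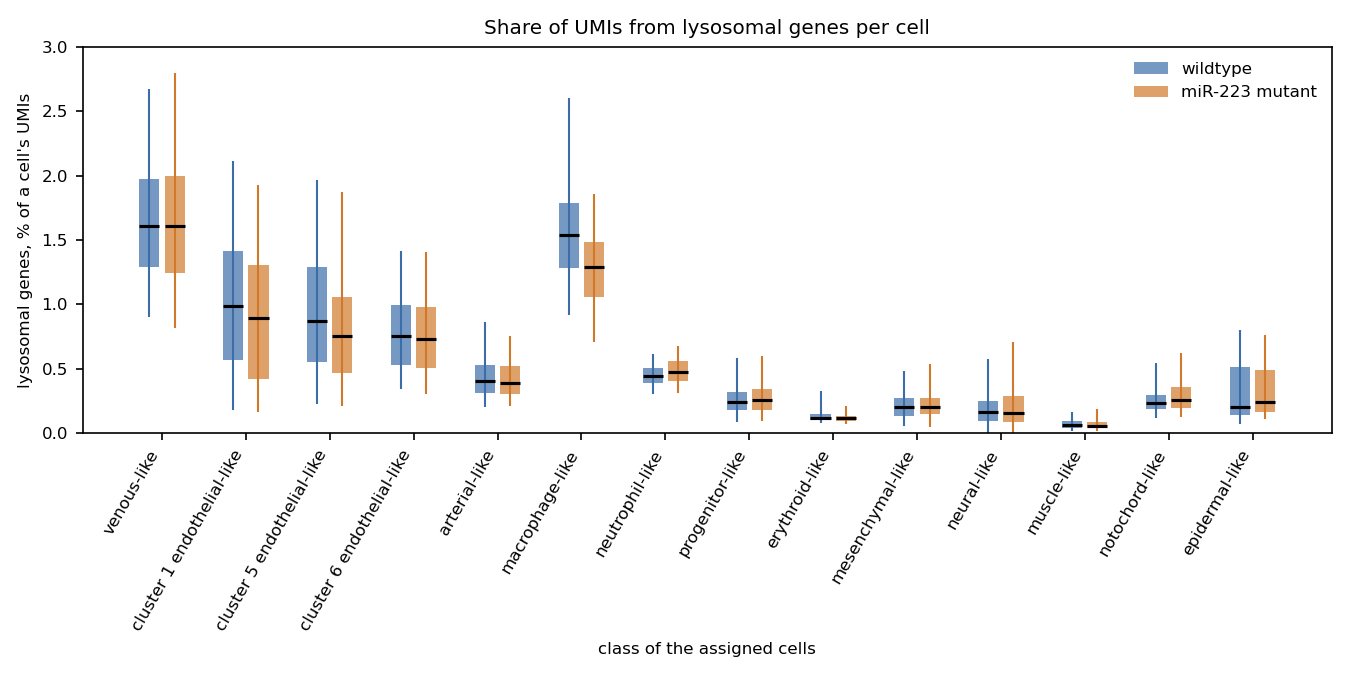
Share of a cell's UMIs that came from the 41 lysosomal genes, in percent on the vertical axis, for the cells of the matrices in each class and library; boxes span the quartiles, black lines mark medians and whiskers the 5th to 95th percentiles. Venous-like and macrophage-like cells stand above the rest, with venous-like medians of 1.61% in both libraries and arterial-like medians of 0.4003% and 0.385%.

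A few genes carried most of the sum. The cathepsin L gene ctsla alone supplied 30.1% of all lysosomal UMIs, the legumain gene lgmn 10.1%, the tetraspanin gene cd63 8.51% and the sialic acid lyase gene npl 6.03%, and the top 10 genes together supplied 79.4%. Without ctsla, lgmn and cd63 the order of the classes changed: macrophage-like cells gave 1.24% and 1.09% of UMIs, above venous-like cells with 0.753% and 0.855%, while venous-like cells stayed above other endothelial-like cells with 0.373% and 0.398%. At the low end, the alpha-galactosidase gene gla had 34 UMIs over both libraries, the acid sphingomyelinase gene smpd1 had 47 and the acid alpha-glucosidase gene gaa had 49, too few to be placed in any class. Of the 35 genes with at least 200 UMIs in each library, 30 were highest in a cluster of the same name in both libraries. They split evenly: 14 were highest in a venous-like cluster, 14 in the macrophage-like cluster, ctsk in the mesenchymal-like cluster and cd63 in the neutrophil-like cluster. The same counts were not made over all genes, and the macrophage-like cluster held only 33 wildtype and 30 mutant cells. The venous-like group was ctsla, lgmn, cpvl, rnaset2, npl, hexa, hexb, man2b1, neu1, pla2g15, npc2, lamp1b, lamp2 and laptm4a. The macrophage-like group was ctsd, ctsba, ctsc, ctsh, ctsa, glb1, psap, gm2a, asah1b, npc1, atp6ap1b, atp6ap2, atp6v0ca and atp6v1e1b, and so held all 4 pump genes of the list.

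**Figure D2:**
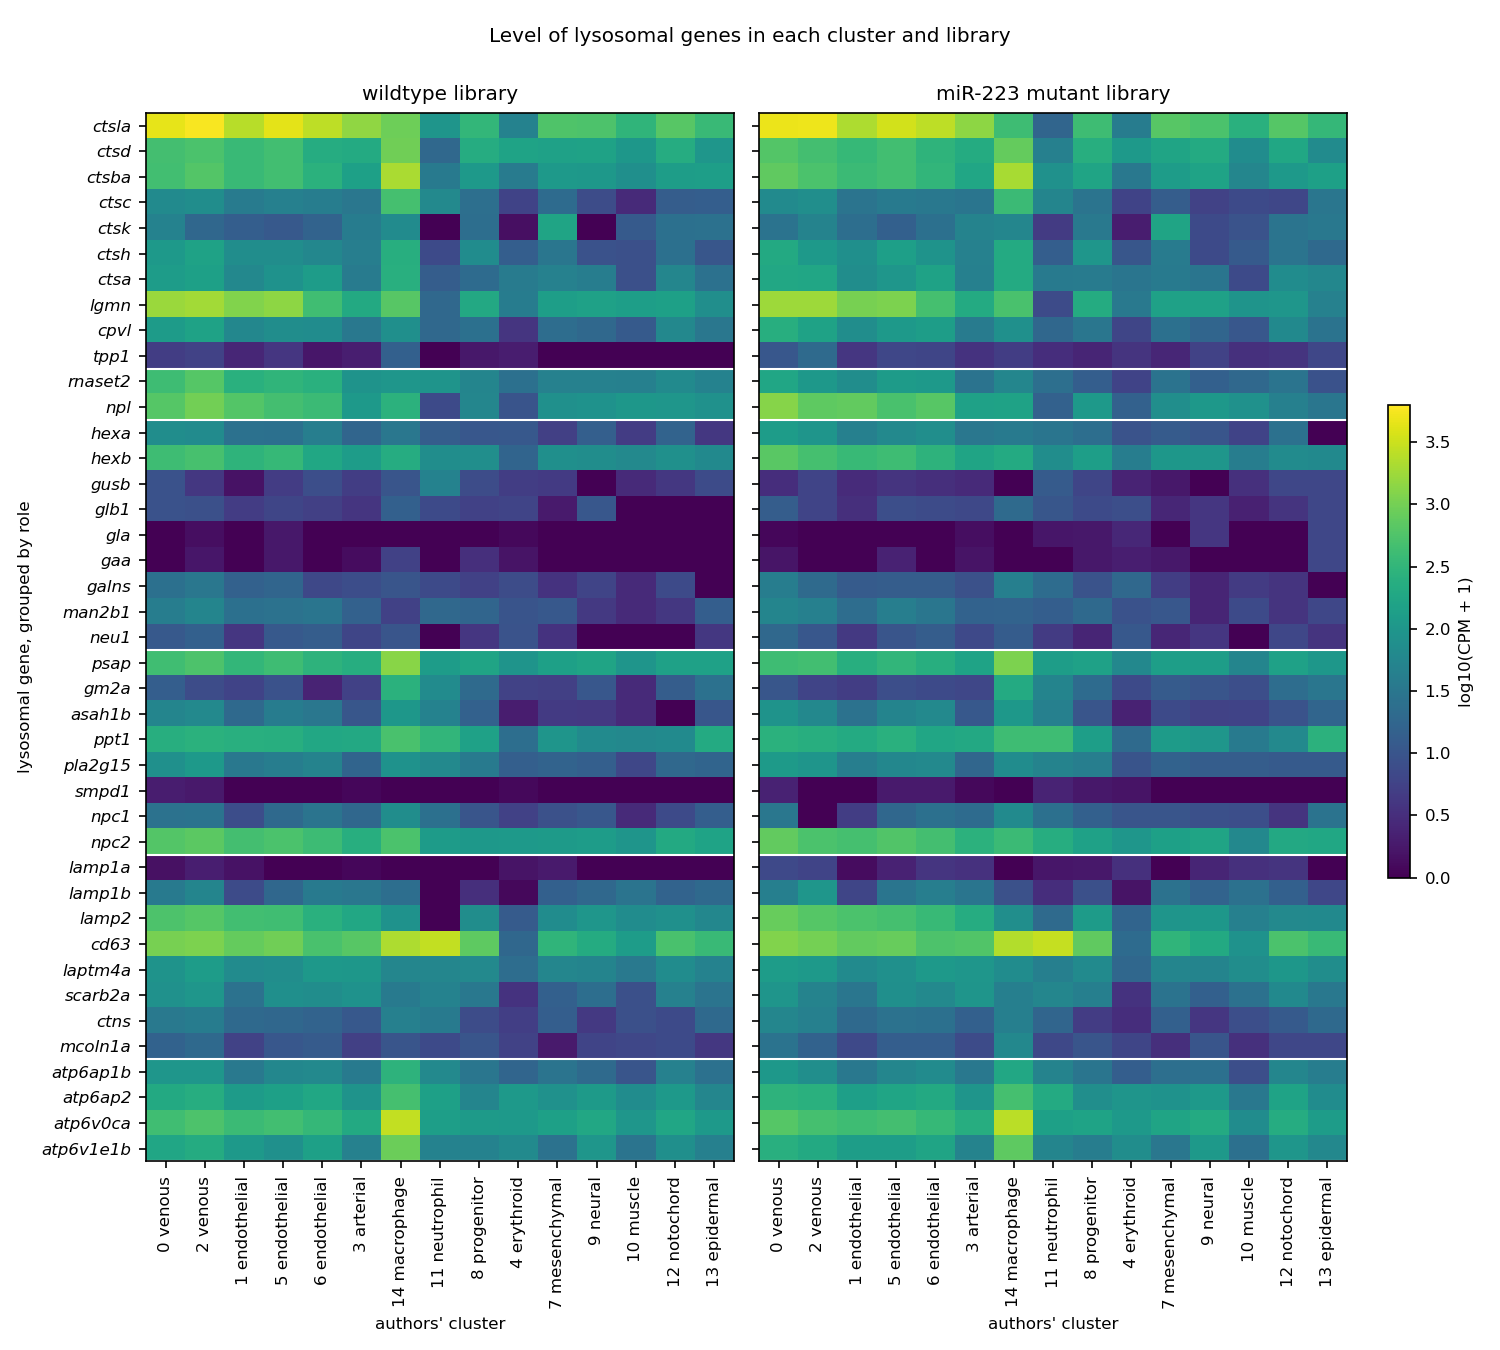
Level of each of the 41 lysosomal genes (rows, grouped by role with white lines between roles) in the 15 clusters of each library (columns), coloured by log10(CPM + 1). The venous-like and macrophage-like columns are the brightest for most rows, ctsk is brightest in the mesenchymal-like column and cd63 in the neutrophil-like column.

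Against the other endothelial-like clusters (1, 3, 5 and 6), venous-like cells had more of nearly every lysosomal gene. In the wildtype library 20 of the 35 genes that passed the limit of 5 CPM were higher at least 2-fold, where 13.8% of all genes were, and 34 of 35 were higher by any amount, where 76.7% of all genes were. In the mutant library 25 of 37 were higher at least 2-fold (all genes 8.19%) and 36 of 37 by any amount (all genes 68.4%). In neither library was any lower at least 2-fold, where 3.19% and 3.46% of all genes were. The median log2 ratio of the lysosomal genes was 1.18 (wildtype) and 1.17 (mutant), beside 0.39 and 0.21 for all genes. Globin RNA moved with this comparison: hbbe1.1 lay at 3482 to 4430 CPM in clusters 1 and 5 and at 863 to 1728 CPM in the other endothelial-like clusters. With globin, mitochondrial and ribosomal protein genes left out of the scaling, 19 and 21 of 37 genes passed 2-fold (all genes 9.02% and 6.08%), and the median of all genes was 0.20 and 0.07. With scaling by median of ratios, which brought the median of all genes to 0.10 and 0.03, 11 of the 35 and 18 of the 37 genes passed 2-fold (all genes 6.61% and 5.29%), and again none was lower at least 2-fold.

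Of the peptidase genes, 6 of 9 in the wildtype and 8 of 10 in the mutant library passed 2-fold. The gene ctsla, which encodes a cysteine protease that cuts proteins internally, lay at 5568 CPM (wildtype) and 4958 CPM (mutant) in venous-like cells and at 2271 and 2209 CPM in the other endothelial-like cells. The ratio was 2.45-fold (2.42 to 2.48) and 2.24-fold (2.21 to 2.28). The asparaginyl endopeptidase gene lgmn lay at 1859 and 1771 CPM against 779 and 597 CPM, a ratio of 2.39-fold (2.34 to 2.44) and 2.96-fold (2.89 to 3.04). Both were high in venous-like cells of both libraries. The steepest peptidase was the serine carboxypeptidase-like gene cpvl, at 148 and 236 CPM against 49.5 and 78.9 CPM and 2.99-fold (2.76 to 3.24) and 2.99-fold (2.79 to 3.21). Cathepsin B (ctsba) stood at 579 and 738 CPM against 281 and 299 CPM, cathepsin H (ctsh) at 146 and 199 CPM against 58.8 and 77.3 CPM, and cathepsin A (ctsa), which also shields other lysosomal enzymes, at 143 and 189 CPM against 58.4 and 85.3 CPM. The exception in direction was cathepsin K (ctsk), an enzyme that cuts collagen, at 21.4 and 27.5 CPM against 22.5 and 31.7 CPM, which gave 0.954-fold (0.821 to 1.11) and 0.869-fold (0.755 to 1.001). It was the 1 lysosomal gene not higher in venous-like cells, and its highest level was in mesenchymal-like cells, at 166 and 166 CPM.

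Enzymes that take apart RNA and glycans were also high in venous-like cells. The acid ribonuclease gene rnaset2 lay at 609 CPM (wildtype) and 173 CPM (mutant) there and at 196 and 71.7 CPM in the other endothelial-like cells, ratios of 3.10-fold (2.98 to 3.23) and 2.41-fold (2.23 to 2.59). The gene npl, whose product splits the sialic acid released from glycans, lay at 932 and 1260.3 CPM against 391 and 468 CPM, or 2.38-fold (2.31 to 2.45) and 2.69-fold (2.62 to 2.77). Both genes of that role passed 2-fold in both libraries. The alpha subunit of beta-hexosaminidase (hexa) lay at 66.8 and 126 CPM against 23.0 and 49.1 CPM, or 2.90-fold (2.58 to 3.27) and 2.58-fold (2.36 to 2.82). Its beta subunit (hexb) lay at 479 and 665 CPM against 225 and 276 CPM, or 2.12-fold (2.04 to 2.21) and 2.41-fold (2.32 to 2.50). The sulfatase gene galns, needed to degrade keratan sulfate, lay at 30.4 and 38.9 CPM against 10.9 and 10.3 CPM, or 2.79-fold (2.34 to 3.32) and 3.78-fold (3.13 to 4.57). Of the glycosidase and sulfatase genes above the limit, 5 of 6 and 6 of 6 passed 2-fold, with the mannosidase gene man2b1 at 50.7 and 51.8 CPM against 21.0 and 24.3 CPM and the sialidase gene neu1 at 13.1 and 17.9 CPM against 5.21 and 7.32 CPM. The beta-glucuronidase gene gusb did not reach the limit of 5 CPM in either pool.

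Lipid enzymes were split. The lysosomal phospholipase A2 gene pla2g15 lay at 105 CPM (wildtype) and 117 CPM (mutant) in venous-like cells against 27.9 and 38.9 CPM, or 3.76-fold (3.39 to 4.18) and 3.003-fold (2.72 to 3.32). The acid ceramidase gene asah1b lay at 60.2 and 88.1 CPM against 17.9 and 32.2 CPM, or 3.37-fold (2.96 to 3.85) and 2.74-fold (2.46 to 3.06). These were the 2 of 7 lipid genes past 2-fold in each library. The palmitoyl thioesterase gene ppt1 differed little, at 259 and 266 CPM against 224 and 203 CPM and 1.15-fold (1.105 to 1.21) and 1.31-fold (1.25 to 1.38). The cholesterol carriers npc2 and npc1, which pass cholesterol out of the lysosome in turn, had ratios of 1.83-fold and 1.85-fold for npc2 and 1.997-fold and 1.78-fold for npc1. The saposin precursor gene psap, the source of the small activators of sphingolipid hydrolases, had ratios of 1.80-fold and 1.87-fold.

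Among membrane proteins, 3 of 7 and 4 of 8 genes passed 2-fold. The lysosomal calcium channel gene mcoln1a lay at 18.5 CPM (wildtype) and 27.2 CPM (mutant) in venous-like cells against 5.45 and 8.81 CPM, or 3.39-fold (2.67 to 4.33) and 3.08-fold (2.51 to 3.81). The structural membrane protein gene lamp2 lay at 625 and 818 CPM against 335 and 364 CPM, or 1.87-fold (1.81 to 1.93) and 2.25-fold (2.17 to 2.32), so that it passed 2-fold in the mutant library only. Its relative lamp1b did so in the wildtype library only, at 2.62-fold against 1.62-fold, and the cystine exporter gene ctns did so in both, at 2.55-fold and 2.80-fold. The tetraspanin gene cd63 had ratios of 1.55-fold and 1.85-fold, laptm4a of 1.43-fold and 1.36-fold and scarb2a, which encodes the sorting receptor of glucocerebrosidase, of 1.72-fold and 1.36-fold. Of the pump genes, 2 of 4 and 3 of 4 passed 2-fold. The accessory subunit gene atp6ap1b had ratios of 2.54-fold and 2.33-fold, atp6v1e1b of 2.41-fold and 2.34-fold, atp6ap2 of 1.97-fold and 2.01-fold and the membrane ring subunit gene atp6v0ca of 1.68-fold and 1.87-fold.

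Against arterial-like cells alone the differences were wider. Of the same genes, 27 of 35 in the wildtype library (all genes 11.9%) and 28 of 37 in the mutant library (all genes 12.7%) were higher at least 2-fold in venous-like cells, with median log2 ratios of 1.72 and 1.65 beside 0.04 and 0.03 for all genes. The gene lgmn had 200.002 and 206 CPM in arterial-like cells, which gave ratios of 9.29-fold (8.79 to 9.84) and 8.59-fold (8.08 to 9.13). By the wildtype ratio, npl came next at 8.52-fold and 8.41-fold, then rnaset2 at 6.85-fold and 6.47-fold. After them came pla2g15 at 6.75-fold and 6.99-fold and asah1b at 6.45-fold and 8.69-fold. In the mutant library the order differed, with asah1b above lgmn and npl, and pla2g15 above rnaset2. The arterial level of ctsla was still 1471 and 1407 CPM, so its ratio was smaller, 3.78-fold (3.70 to 3.87) and 3.52-fold (3.44 to 3.61). Near or below parity were scarb2a at 1.14-fold and 0.991-fold, laptm4a at 1.18-fold and 1.26-fold and ctsk at 0.553-fold and 0.555-fold.

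Lysosome genes outside the 41 went the same way. From a list of 116 further genes, 103 were in the authors' table, and 44 of the 69 above the limit in the wildtype library and 39 of 68 in the mutant library were at least 2-fold higher in venous-like than in other endothelial-like cells, where 13.8% and 8.19% of all genes were, and none was lower at least 2-fold. By role, this held for 15 of 25 other hydrolases in each library, for 13 of 16 and 12 of 16 other pump subunits, for 4 of 8 and 2 of 8 genes of mannose 6-phosphate tagging and sorting, and for 10 of 18 and 8 of 17 genes of fusion, docking and nutrient signalling. The fucosidase gene fuca1.1 lay at 229.99 against 76.9 CPM and 308 against 88.0 CPM, ratios of 2.99-fold (2.81 to 3.19) and 3.50-fold (3.29 to 3.73). Cathepsin Z (ctsz) lay at 142 against 50.05 CPM and 173 against 56.3 CPM, or 2.83-fold (2.61 to 3.07) and 3.07-fold (2.83 to 3.33). The MiT/TFE factors tfec and tfe3a were the 2 of 5 listed transcription factors above the limit, and both passed 2-fold in both libraries. The factor gene tfec lay at 22.1 against 4.44 CPM and 26.3 against 9.30 CPM, or 4.99-fold (3.87 to 6.50) and 2.83-fold (2.31 to 3.49), and its ratios to arterial-like cells were 19.97-fold (9.59 to 50.03) and 14.02-fold (7.53 to 29.5). In the wildtype library tfec passed the limit only through its level in venous-like cells. Its ratios to arterial-like cells rest on 7 and 10 UMIs in those cells. The gene tfe3a lay at 45.7 against 11.7 CPM and 67.4 against 26.4 CPM, or 3.89-fold (3.31 to 4.57) and 2.55-fold (2.26 to 2.89).

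Macrophage-like cells, the phagocytes of the embryo, differed from venous-like cells in the level of single lysosomal genes. Their share of lysosomal RNA was alike in the wildtype library and lower in the mutant library, at 1.41% against 1.65%. The cluster held 33 wildtype and 30 mutant cells in the authors' table. Against venous-like cells, 12 of 37 genes were at least 2-fold higher (all genes 18.2%) and 12 of 37 lower (all genes 38.2%) in the wildtype library, and 8 of 37 were higher (all genes 22.8%) and 13 of 37 lower (all genes 29.9%) in the mutant library. Apart from the higher genes of the wildtype library, these counts lay near the shares of all genes, so they do not set lysosomal genes apart. The largest difference was in gm2a, the activator protein with which beta-hexosaminidase degrades GM2 ganglioside. It lay at 268 CPM (wildtype) and 209 CPM (mutant) in macrophage-like cells and at 7.32 and 9.46 CPM in venous-like cells, ratios of 36.7-fold (26.4 to 50.5) and 22.1-fold (15.7 to 30.6). The hexosaminidase subunits themselves did not share this pattern: hexb lay at 224 and 209 CPM and hexa at 31.3 and 34.8 CPM in macrophage-like cells, below the venous-like levels given above.

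Pump genes and part of the cathepsins were high in macrophage-like cells. The gene atp6v0ca lay at 2807 and 2539 CPM there against 534 and 633 CPM in venous-like cells, or 5.26-fold (4.84 to 5.70) and 4.01-fold (3.70 to 4.35). The gene atp6v1e1b lay at 889.6 and 723 CPM against 209 and 252 CPM, or 4.26-fold (3.67 to 4.91) and 2.87-fold (2.46 to 3.33). Of the 4 pump genes, 4 passed 2-fold in wildtype cells and 2 in mutant cells. Cathepsin C (ctsc), which activates the serine proteases of immune granules, lay at 469 and 394 CPM against 70.1 and 64.0 CPM, or 6.70-fold (5.43 to 8.19) and 6.16-fold (4.96 to 7.57). Cathepsin B (ctsba) lay at 2069.7 and 1982 CPM, or 3.58-fold (3.25 to 3.93) and 2.68-fold (2.45 to 2.93), and cathepsin D (ctsd), an aspartic protease, at 934 and 784 CPM against 526 and 598 CPM, or 1.78-fold (1.54 to 2.04) and 1.31-fold (1.14 to 1.51). The precursor gene psap stood at 1346 and 1124 CPM against 527 and 413 CPM, or 2.55-fold (2.27 to 2.87) and 2.72-fold (2.41 to 3.06). In macrophage-like cells ppt1 lay at 510 and 421 CPM and npc1 at 71.5 and 65.7 CPM.

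Of the genes with the most UMIs in venous-like cells, ctsla, lgmn and npl were lower in macrophage-like cells and cd63 was higher. In the cells of the matrices, cd63 lay at 2319 and 2396 CPM in macrophage-like and at 1134 and 1177 CPM in venous-like cells. In the authors' table ctsla lay at 912 and 409.6 CPM in macrophage-like cells. Its ratios to venous-like cells were 0.164-fold (0.142 to 0.188) and 0.0826-fold (0.0676 to 0.0999). It was the cathepsin with the greatest venous excess, while ctsba and ctsc went the other way. Legumain (lgmn) lay at 644 and 514 CPM, or 0.346-fold (0.292 to 0.408) and 0.290-fold (0.243 to 0.344), and lamp2 at 84.9 and 73.4 CPM, or 0.136-fold (0.0818 to 0.212) and 0.0897-fold (0.0540 to 0.140). The lyase gene npl stood at 277 and 155 CPM, or 0.297-fold (0.228 to 0.381) and 0.123-fold (0.0876 to 0.167), and rnaset2 at 98.3 and 54.1 CPM, or 0.162-fold (0.101 to 0.245) and 0.313-fold (0.171 to 0.527). Both genes of the nuclease and lyase role were lower at least 2-fold in both libraries. The gene rnaset2l, a further ribonuclease T2 gene outside the 41, lay at 179 and 170.01 CPM in the macrophage-like cluster. From the list of further lysosome genes, 28 of 78 were higher and 17 lower at least 2-fold in macrophage-like than in venous-like cells in the wildtype library (all genes 18.2% and 38.2%), and 30 and 17 of 80 in the mutant library (all genes 22.8% and 29.9%). Cathepsin S (ctss2.1), known in mammals for antigen processing, stood at 2056 against 1.45 CPM and 1754 against 2.04 CPM.

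**Figure D3:**
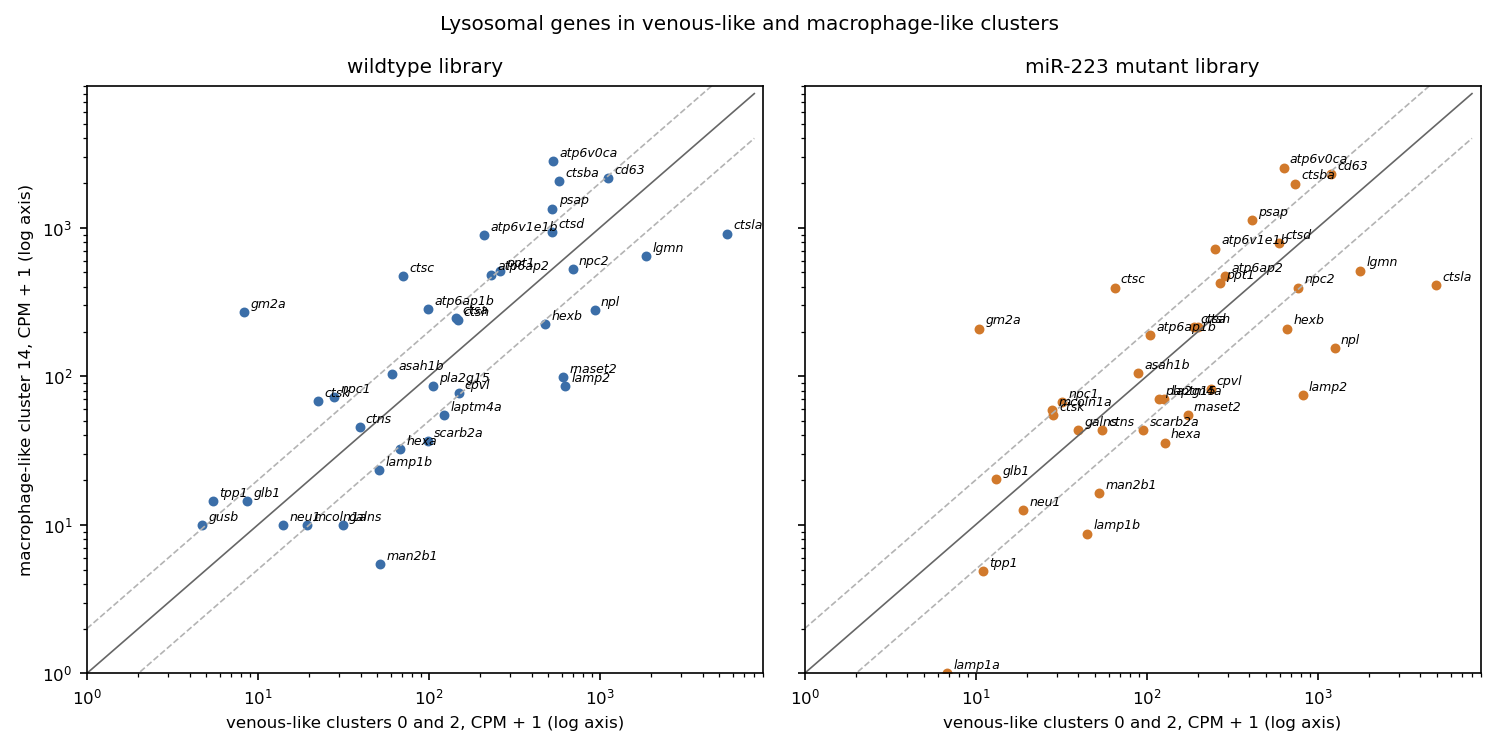
Level of each lysosomal gene above the limit in venous-like cells (horizontal) and in macrophage-like cells (vertical), in CPM + 1 on log axes. There is 1 panel and 1 colour per library, the solid line marks equal levels and dashed lines mark 2-fold. The genes gm2a, ctsc, atp6v0ca and atp6v1e1b lie above the upper dashed line in the wildtype panel, and ctsla, lgmn, lamp2, npl and rnaset2 lie under the lower one in both panels.

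Set against all endothelial-like cells instead, macrophage-like cells were at least 2-fold higher for 19 of 37 genes (all genes 20.3%) and lower for 8 of 37 (all genes 34.4%) in the wildtype library, with a median log2 ratio of 1.08 beside -0.28 for all genes. In the mutant library 12 of 36 were higher (all genes 24%) and 9 of 36 lower (all genes 28%), with a median of 0.64 beside -0.08. From the 80 wildtype and 96 mutant macrophage-like cells assigned in the matrices, 14 of 36 genes were higher and 8 lower in the wildtype library, where 17.5% of all genes were higher and 30.8% lower. In the mutant library 10 of 36 were higher and 11 lower, where 15.4% of all genes were higher and 33.3% lower. The medians from the matrices were 0.46 beside -0.26 for all genes in the wildtype library and 0.16 beside -0.40 in the mutant library. These cells were deeper, with medians of 17500 and 18217 UMIs against means of 6779 and 8627 UMIs per cell in the authors' table. By either source fewer genes were higher in the mutant than in the wildtype library, and that difference was not tested.

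Most lysosomal UMIs of neutrophil-like cells came from cd63. Against endothelial-like cells, 20 of 36 and 24 of 37 genes were lower at least 2-fold (all genes 28.1% and 28.5%), and 3 were higher in each (all genes 29.5% and 20.1%). The tetraspanin cd63, which is known from the granules of leukocytes, lay at 2790.03 CPM (wildtype) and 2877 CPM (mutant). It made up 60.6% and 58.8% of all lysosomal UMIs of neutrophil-like cells, and its ratios to endothelial-like cells were 3.04-fold (2.77 to 3.33) and 3.15-fold (3.05 to 3.26). The other 2 were gusb, at 48.2 and 11.4 CPM with ratios of 15.2-fold (6.40 to 31.1) and 5.28-fold (2.84 to 9.30) that rest on few cells, and gm2a, at 66.3 and 51.3 CPM with 11.1-fold (5.46 to 20.3) and 6.90-fold (5.20 to 9.08). From the 111 and 302 neutrophil-like cells of the matrices, gusb lay at 14.1 and 6.93 CPM, or 3.84-fold (2.56 to 5.61) and 3.58-fold (2.32 to 5.44), and gm2a at 54.2 and 42.5 CPM, or 9.87-fold (7.88 to 12.3) and 5.97-fold (4.96 to 7.20). In the authors' table the gene ctsla was at 96.4 and 16.4 CPM and ctsba at 36.2 and 83.4 CPM. This cluster held 18 wildtype and 157 mutant cells. When macrophage-like and neutrophil-like cells were summed as myeloid-like, 12 of 37 genes were higher and 9 lower at least 2-fold than in endothelial-like cells in the wildtype library (all genes 23.1% and 26.5%), and 4 and 18 in the mutant library (all genes 20.8% and 26.6%). With globin, mitochondrial and ribosomal protein genes left out of the scaling, the wildtype counts were 10 higher and 12 lower of 37 (all genes 20.8% and 31%). The sums mixed 33 with 18 and 30 with 157 cells, so the myeloid-like sums of the libraries differ in makeup.

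Erythroid-like cells were the low end among blood cells. None of the genes was higher at least 2-fold than in endothelial-like cells, where 13.1% and 20.2% of all genes were, and 31 of 35 and 32 of 36 were lower, where 47.8% and 39.1% of all genes were. The least reduced were the beta-galactosidase gene glb1, with log2 ratios of -0.10 and -0.24, and the sialidase gene neu1, with -0.10 and -0.29. Counts of a gene in such cells can come from RNA free in the droplets. Globin RNA was also part of the sum to which their levels were scaled. The globin genes hbbe1.1 and hbae3 alone lay at 62992.5 and 85778 CPM in wildtype and at 69788 and 80620 CPM in mutant erythroid-like cells. The part of globin in the low lysosomal levels was not tested. After thinning to 2000 UMIs, ctsla was detected in 99.6% and 99.5% of venous-like cells (99.9% and 100% without thinning). It was detected in 87.5% and 85.8% of arterial-like cells and in 16.3% and 16.2% of erythroid-like cells (84.2% and 82.9% without thinning, at median depths of 31030 and 27949 UMIs). Muscle-like cells gave 10.7% and 17.5%. Macrophage-like cells lay between, at 70.5% and 47.4%, and neutrophil-like cells were within the range of erythroid-like and muscle-like cells in the wildtype library and below it in the mutant library, at 15.5% and 9.93%. Thinning left out 53 and 65 venous-like cells with fewer UMIs.

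Shares of thinned cells were also counted for other leading genes. Transcripts of lgmn were found in 93.5% and 92.3% of thinned venous-like cells, in 24.4% and 26.4% of arterial-like and in 14.4% and 11.7% of erythroid-like cells. Transcripts of ctsba were found in 97.4% and 89.5% of macrophage-like and 66.5% and 74.2% of venous-like cells. For gm2a the shares were 51.3% and 27.4% in macrophage-like cells and 1.24% and 1.54% in venous-like cells, the latter close to the 0.989% and 1.01% of erythroid-like cells. For cd63 they were 98.2% and 99.7% in neutrophil-like and 7.60% and 7.98% in erythroid-like cells.

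Between the libraries, most lysosomal genes of venous-like cells differed by less than 2-fold. Of 36 genes above the limit, 1 was higher at least 2-fold in the mutant library (all genes 1.22%) and 1 was lower (all genes 1.57%). By any amount 29 of 36 were higher in the mutant library, where 50.1% of all genes were, and the median log2 ratio was 0.29 beside 0.000981 for all genes. Beyond counting error, 23 were higher and 6 lower, and how many of all genes were so was not counted. The gene past 2-fold upward was tpp1, a tripeptidyl peptidase of low count, from 4.48 (wildtype) to 10.1 CPM (mutant), or 2.25-fold (1.67 to 3.04). Below 2-fold, hexa stood at 1.89-fold (1.75 to 2.04), cpvl at 1.59-fold (1.51 to 1.68), asah1b at 1.46-fold (1.34 to 1.60), hexb at 1.39-fold (1.35 to 1.43) and npl at 1.35-fold (1.32 to 1.38). The gene ctsla was slightly lower, at 0.890-fold (0.881 to 0.899), and it was higher in cluster 0 alone, at 1.101-fold (1.08 to 1.13), and lower in cluster 2 alone, at 0.871-fold (0.818 to 0.927). The membrane protein gene lamp1a was under the limit, at 1.01 and 5.83 CPM, with a ratio of 5.77-fold (3.34 to 10.6).

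The gene past 2-fold downward was rnaset2. In venous-like cells it went from 609 CPM in wildtype to 173 CPM in mutant cells, or 0.284-fold (0.271 to 0.297). Cluster 0 alone gave 412 and 174 CPM, or 0.422-fold (0.390 to 0.458), and cluster 2 alone 637 and 104 CPM, or 0.163-fold (0.101 to 0.249). So the 2 venous-like clusters differed in size of the drop but not in direction. Arterial-like cells gave 88.8 and 26.7 CPM, or 0.3002-fold (0.248 to 0.362), and it was the only lysosomal gene past 2-fold there, where 1.53% of all genes were lower. It was lower at least 2-fold in all 6 endothelial-like clusters, as were 14 of the 4921 genes that passed the limit in each of them (0.284%). It was lower by some amount in all 15 clusters, as were 29 of 3074 genes (0.943%), with ratios from 0.163-fold in cluster 2 to 0.581-fold in the mesenchymal-like cluster. The drop exceeded counting error in 14 clusters and not in the macrophage-like one, where 22 and 14 UMIs gave 0.550-fold (0.260 to 1.12). In erythroid-like cells it went from 23.9 to 4.81 CPM, and the part that RNA free in the droplets had in such clusters was not tested. Cell by cell after thinning, rnaset2 was detected in 67.0% of wildtype and 28.8% of mutant venous-like cells (93.4% and 64.2% without thinning), and in 4.94% and 2.06% of erythroid-like cells.

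**Figure D4:**
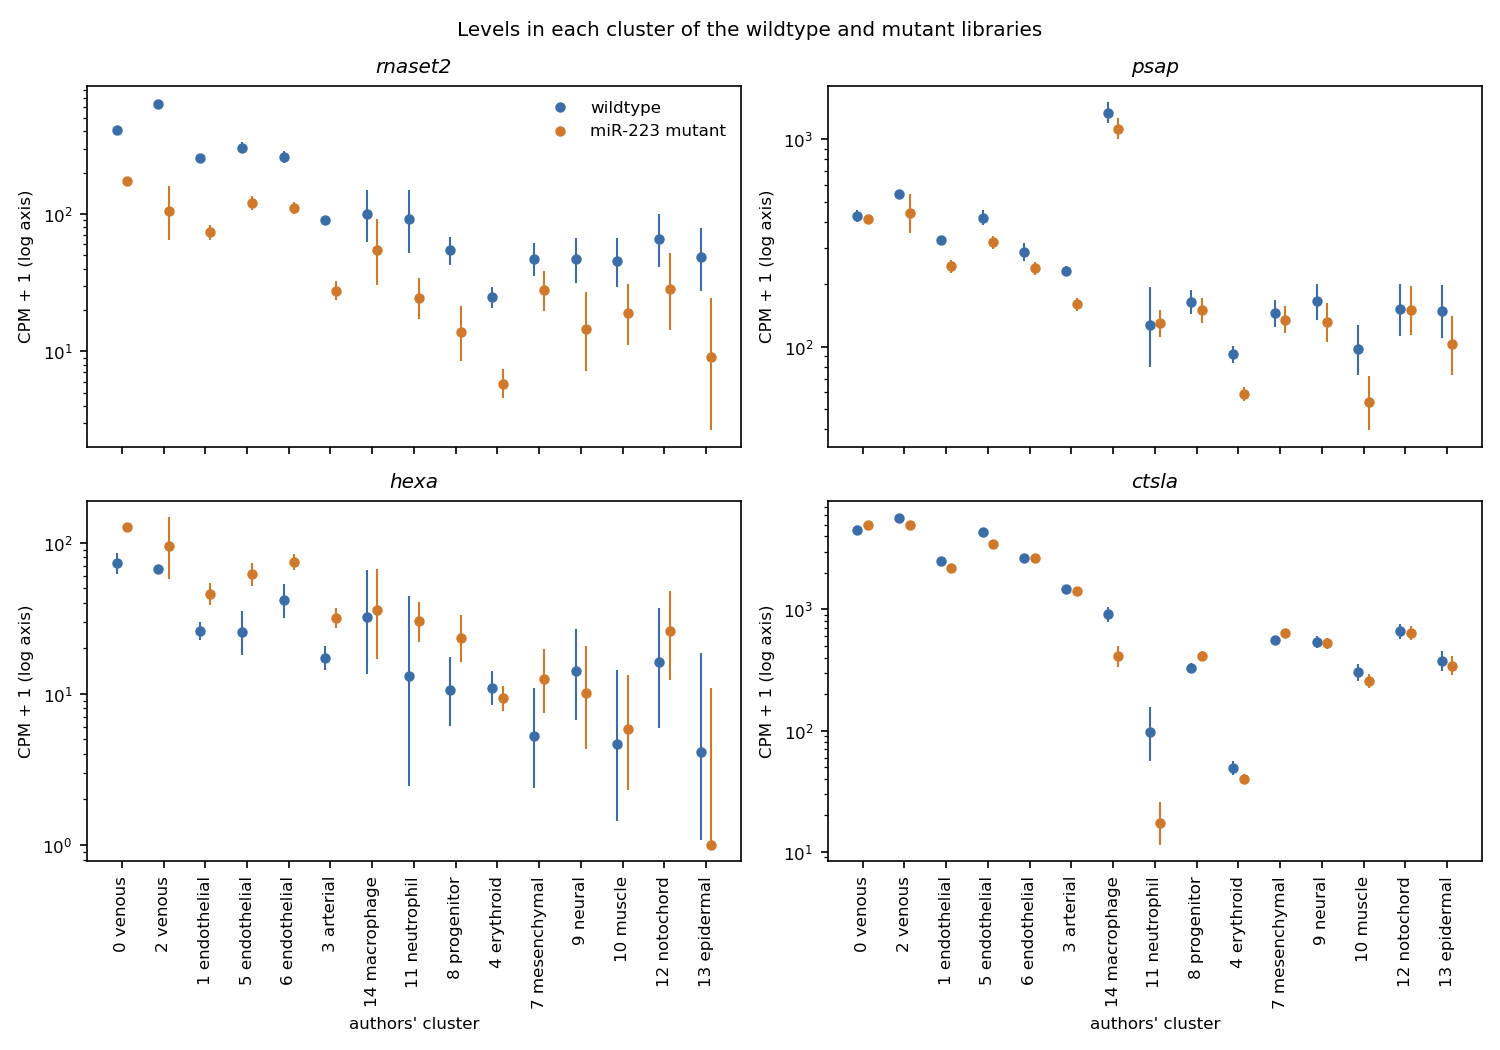
Level of rnaset2, psap, hexa and ctsla in each of the 15 clusters (horizontal axis) of both libraries, as CPM + 1 on a log axis with Poisson 95% intervals of counting error. The mutant points of rnaset2 lie under the wildtype points in every cluster, those of psap in 14 of 15.

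In the other endothelial-like cells, 1 of 34 genes was higher at least 2-fold (all genes 1.51%) and 1 was lower (all genes 1.1%), and 25 of 34 were higher by any amount, where 70.1% of all genes were. The gene hexa went from 23.0 to 49.1 CPM, or 2.13-fold (1.88 to 2.42), so it was just past 2-fold here and just short of it in venous-like cells. Over the 15 clusters hexa was higher in the mutant library in 12, beyond counting error in 6. The gene rnaset2 went from 196 to 71.7 CPM, or 0.366-fold (0.340 to 0.393). The gene lgmn stood at 0.767-fold (0.746 to 0.789) in these cells, but cluster 1 made up 1444 of 2798 wildtype and 580 of 2251 mutant cells, and without it the log2 ratio of lgmn was 0.18. For psap the ratios were 0.784-fold (0.758 to 0.812) in venous-like and 0.756-fold (0.723 to 0.791) in other endothelial-like cells. This saposin gene was lower in the mutant library in 14 of 15 clusters, in 8 of them beyond counting error. Among the further lysosome genes, the progranulin gene grnb was higher in the mutant library in both classes, at 19.4 against 7.69 CPM in venous-like cells, or 2.53-fold (2.03 to 3.16), and 8.31 against 3.42 CPM in other endothelial-like cells, or 2.43-fold (1.76 to 3.40).

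In macrophage-like cells the comparison of libraries rested on few cells and depended on the source. In the authors' table, with 33 and 30 cells, 3 of 36 genes were at least 2-fold higher (all genes 22.9%) and 3 lower (all genes 11.9%). Those higher were galns, man2b1 and mcoln1a, and those lower were ctsla, lamp1b and tpp1. The gene ctsla went from 912 to 409.6 CPM, or 0.449-fold (0.352 to 0.571). Over the 80 and 96 cells assigned in the matrices, rnaset2 alone of 35 genes passed 2-fold, from 133 to 56.2 CPM, or 0.423-fold (0.327 to 0.543), where 3.82% of all genes were higher and 5.5% lower. There ctsla went from 863 to 466 CPM, or 0.540-fold (0.493 to 0.591), short of 2-fold. Of the 35 genes, 28 were lower in the mutant library by some amount, with a median log2 ratio of -0.33 beside -0.06 for all genes. Venous-like cells of the matrices had 30 of 36 genes higher, with a median of 0.26 beside 0.03. The share of all genes higher or lower by any amount was not counted in these cells, and the difference between the 2 classes was not tested.

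In neutrophil-like cells, 12 of 33 genes passed 2-fold in either direction in the authors' table (all genes 9.68% higher and 13.3% lower), with 18 wildtype against 157 mutant cells. Over 111 and 302 cells of the matrices, 2 of 31 did (all genes 3.77% higher and 2.62% lower). The aminopeptidase gene ctsh was higher, from 4.55 to 12.2 CPM, or 2.67-fold (1.40 to 5.62). The gene rnaset2 was lower, from 107 to 35.9 CPM, or 0.335-fold (0.277 to 0.406). The gene ctsla showed how far the small cluster could differ from the matrices: the authors' table gave 96.4 and 16.4 CPM, and the cells of the matrices 82.3 and 94.1 CPM.

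**Figure D5:**
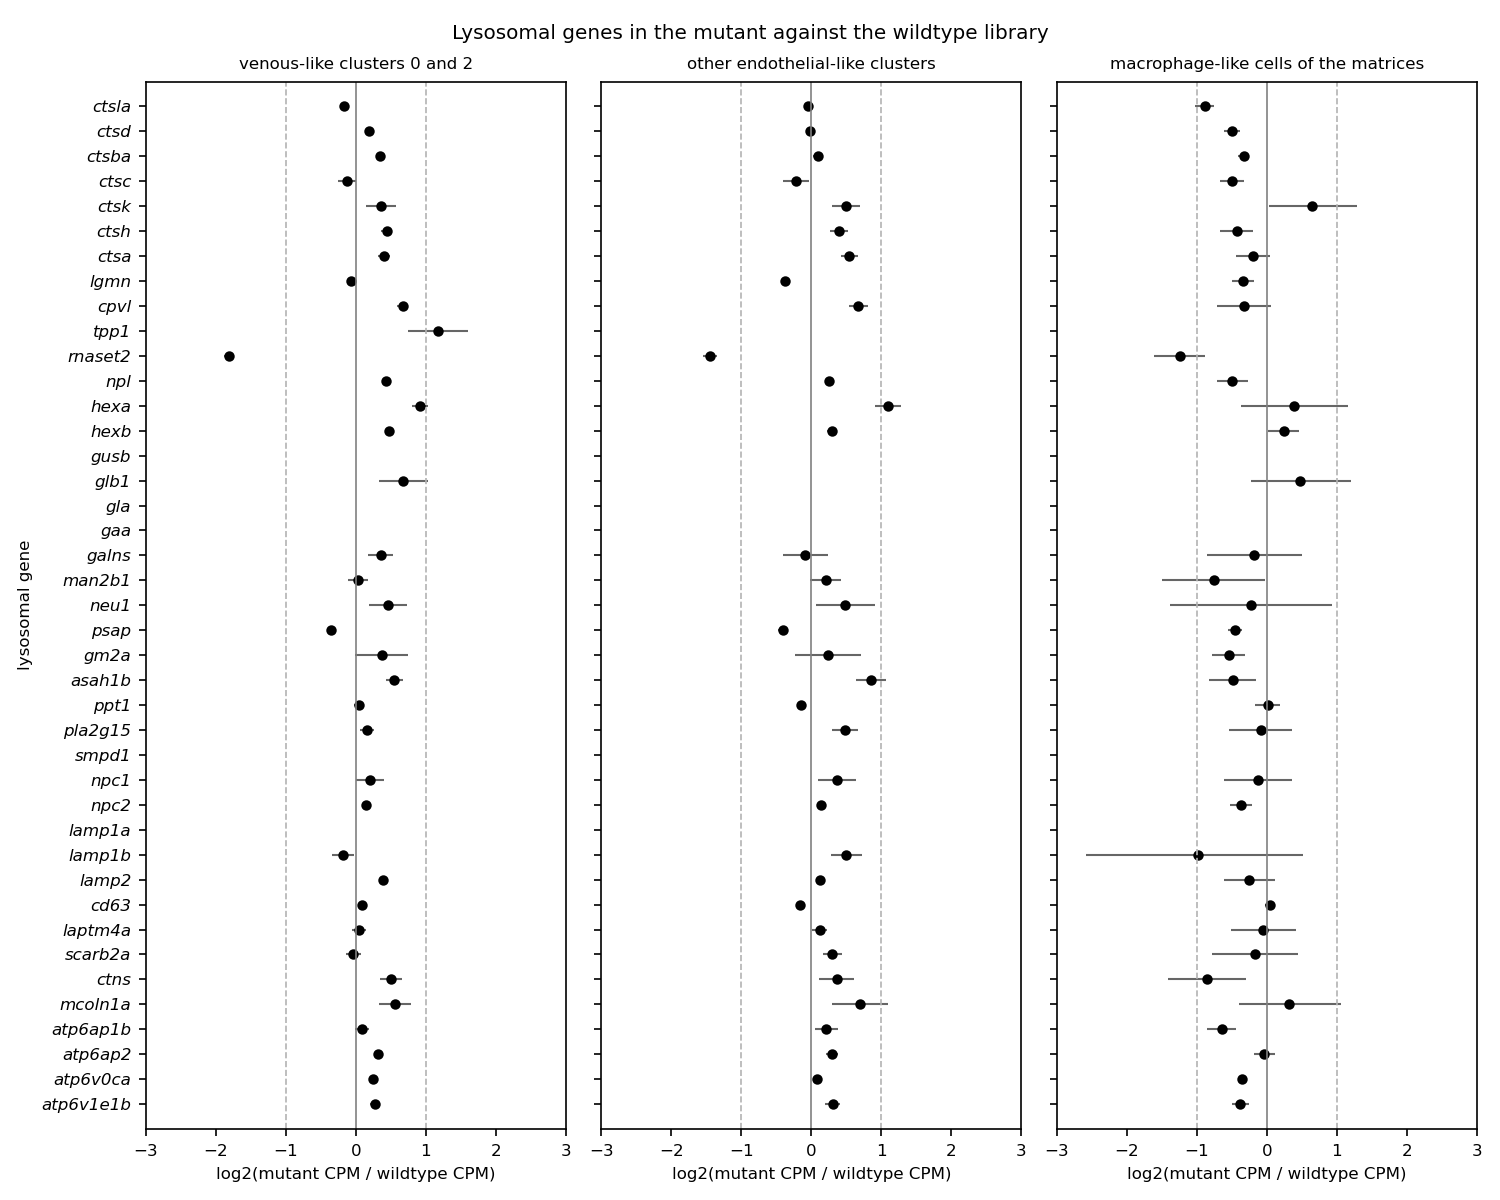
Log2 ratio of mutant over wildtype CPM for each lysosomal gene above the limit, with 95% intervals of counting error, in venous-like cells, in other endothelial-like cells and in macrophage-like cells of the matrices; dashed lines mark 2-fold. The gene rnaset2 lies under the lower line in all 3 panels, tpp1 above the upper line in venous-like cells and hexa above it in other endothelial-like cells.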

How the data were processed

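Trunk cells of 1 wildtype and 1 miR-223 mutant library were analysed, with labels that give 27 hours post fertilization and a 10x Genomics 3′ kit. The deposited matrices hold raw UMI counts per gene and barcode (8702 wildtype and 9176 mutant barcodes), and their headers name software version 3.0.2, per the file headers. The submitters' processing notes name bcl2fastq, Cell Ranger, Seurat and the build GRCz11, without their roles. A table deposited by the authors gives the mean signal, in UMIs per cell, of 15 clusters in each library; the filter and clustering behind it are not given in the sources used here. A whole number of cells made each of its 534660 values a whole sum of UMIs (100% within a tolerance of 1e-06), and those sums were used. The authors' columns named KO were taken as the mutant.

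From the matrices, cells were kept from 500 detected genes up, if mitochondrial genes gave no more than 10% of UMIs (7520 wildtype and 8464 mutant, with medians of 8334 and 9977 UMIs), and doublets were neither called nor removed. Each cell was assigned to the authors' cluster with the highest multinomial likelihood, from profiles pooled over both libraries without any lysosome gene; with those genes, 99.1% and 99.3% of cells got the same cluster. Clusters were named from marker lists. Ratios have exact conditional intervals, summed counts Poisson intervals and shares exact binomial intervals, all at 95%. A call was a 2-fold difference after 1 CPM was added to both levels, which shrinks the ratios of low genes, among genes at 5 CPM or more in either pool for classes and on average for genotypes. Thinning drew 2000 UMIs per cell.

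Values are given for the 10 genes with the highest pooled CPM, the 8 largest venous-like and the 8 largest myeloid-like ratios, the genes past 2-fold between libraries, and others where a group is described. The 42 genes, the lists and the classes were chosen with earlier results of these data known, and the summing of clusters 0 and 2 and the further lysosome genes named were settled after their values were seen. Alternatives changed the filter, fold, pseudocount, scaling, source of cells and clusters pooled. The steps were tested on simulated data. Python 3.11.15 was used with numpy 2.4.6, scipy 1.17.1, pandas 2.3.3 and matplotlib 3.10.9.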

Additional observations from a re-analysis of the deposited data

Results flagged for a closer look

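For 10 genes the ratio of mutant to wildtype went in opposite directions in the venous-like and the macrophage-like cells of the matrices, each time beyond counting error, and this is why they are listed. All were higher in the mutant library in venous-like cells and lower in macrophage-like cells, and none passed 2-fold in either. The log2 ratios of cathepsin D (ctsd) were 0.16 in venous-like and -0.50 in macrophage-like cells. In the same order they were 0.31 and -0.33 for cathepsin B (ctsba), 0.38 and -0.43 for cathepsin H (ctsh) and 0.38 and -0.49 for the sialic acid lyase (npl). They were 0.32 and -0.54 for the GM2 activator (gm2a), 0.52 and -0.48 for acid ceramidase (asah1b) and 0.13 and -0.37 for the cholesterol carrier (npc2). The remaining ratios were 0.44 and -0.83 for the cystine exporter (ctns), 0.20 and -0.35 for the pump subunit (atp6v0ca) and 0.24 and -0.38 for the pump subunit (atp6v1e1b). How many of all genes went in opposite directions in this way was not counted. The median log2 ratio of the lysosomal genes was 0.26 in these venous-like and -0.33 in these macrophage-like cells. For all genes it was 0.03 and -0.06. There was 1 library per genotype, and the difference between the classes was not tested.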

How the results depend on the processing

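No paired analysis was possible because each group holds 1 library, and for the same reason no library could be left out. Under the alternatives, 151 values of the main comparisons stayed and 38 moved. A count stayed if it was within 1.5-fold of its main value, and a share of UMIs if it was within the interval of counting error. Values that stayed could thus still differ: the venous-like count of 25 in the mutant library became 18 under median of ratios scaling. The venous-like count of 20 in the wildtype library became 31 at 1.5-fold and 11 under median of ratios scaling. For myeloid-like cells of the wildtype library, the 9 lower genes became 15 at 1.5-fold and the 12 higher ones 7 from the matrices, and the 12 higher macrophage-like genes of the mutant library became 19 at 1.5-fold. Between libraries, the 2 genes past 2-fold in venous-like cells became 1 with a limit of 20 CPM or a pseudocount of 5 CPM, 5 at 1.5-fold and 4 in cluster 0 or cluster 2 alone. The 2 in other endothelial-like cells became 5 at 1.5-fold and 1 with a pseudocount of 5 CPM, under median of ratios, from the matrices and in clusters 1, 3 or 6 alone. The 6 in macrophage-like cells became 3 with a limit of 20 CPM and 1 from the matrices, and the 12 in neutrophil-like cells became 2 from the matrices.

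Shares of lysosomal UMIs moved as well. Without ctsla, lgmn and cd63 they were 0.753% and 0.855% in venous-like cells of the wildtype and mutant libraries, 0.373% and 0.398% in other endothelial-like, 1.24% and 1.09% in macrophage-like, 0.170% and 0.199% in neutrophil-like and 0.0949% and 0.0848% in erythroid-like cells. From the matrices they were 1.63% and 1.62%, 0.615% and 0.590%, 1.56% and 1.26% in the first 3 classes and 0.130% and 0.125% in erythroid-like cells.

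Among single genes past 2-fold in the main setting, 6 log2 ratios changed sign, all from the matrices. In the wildtype library these were tpp1 in myeloid-like over endothelial-like cells (-0.32) and galns in macrophage-like over endothelial-like cells (0.35). For mutant over wildtype they were galns (-0.17) and tpp1 (0.072) in macrophage-like cells, and ctsla (0.19) and lgmn (0.65) in neutrophil-like cells. Genes outside that check changed sign as well. In macrophage-like cells of the matrices man2b1 went from 28.3 (wildtype) to 16.8 CPM (mutant), where the authors' table had it higher at least 2-fold. In neutrophil-like cells ctns went from 13.2 to 13.9 CPM, where the table had it lower at least 2-fold. Ratios short of 2-fold changed sign too and were not counted here. Mutant over wildtype ctsla in venous-like cells, for example, was -0.17 in the main setting and 0.14 in cluster 0 alone. The cause was not tested. The gene rnaset2 stayed under -1 in venous-like and other endothelial-like cells under every alternative run, from -2.61 in cluster 2 alone to -1.03 without cluster 1. For hexa the range was 0.50 to 0.92 in venous-like and 0.81 to 1.27 in other endothelial-like cells. For venous-like against other endothelial-like cells, counting cluster 5 as venous-like (20 and 24 genes past 2-fold), leaving out cluster 1 or using cluster 3 alone were added after seeing the data, as was leaving out cluster 1 between libraries. Depth limits genes of few counts, such as gla, gaa and smpd1, and the table's macrophage-like and wildtype neutrophil-like cells.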

Other observations

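Macrophage-like and venous-like cells also differed in which of several related lysosome genes they held, among genes outside the 41 that were picked out after their values were seen. Levels are macrophage-like against venous-like, in the authors' table. The acid deoxyribonuclease gene dnase2, which degrades engulfed DNA, lay at 35.8 against 1.01 CPM in wildtype and 19.3 against 0.984 CPM in mutant cells, opposite in direction to the acid ribonuclease gene rnaset2. The prolylcarboxypeptidase gene prcp was venous, at 58.1 against 776 and 11.6 against 509.7 CPM, as was the glucosamine sulfatase gene gnsa, at 0 against 90.4 and 3.86 against 91.5 CPM. Cathepsin F (ctsf) was also higher in venous-like cells, at 22.4 against 124 and 19.3 against 127 CPM. The ceramidase gene asah1a lay at 31.3 against 6.56 and 38.6 against 7.79 CPM, while its paralog asah1b differed by less than 2-fold. Reads of such paralogs may be divided between them. Of the pump, atp6v1ab lay at 210.1 against 16.8 and 174 against 28.2 CPM, atp6v1g1 at 1309.8 against 269.9 and 1434 against 343 CPM and tcirg1b at 277 against 78.4 and 301 against 85.4 CPM, all higher in macrophage-like cells. The transmembrane gene laptm5 of leukocytes lay at 362 against 0.378 and 367 against 0.757 CPM and the progranulin gene grna at 192 against 0.126 and 255 against 0.227 CPM. The acid phosphatase gene acp5a, known in mammals as a marker of osteoclasts and macrophages, lay at 201 against 0.441 and 178 against 0.605 CPM. These ratios rest on 33 wildtype and 30 mutant macrophage-like cells.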
